A study of Mus musculus with 6 samples.

Results

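In mouse retina at embryonic day 14.5, 57 genes were at 1/2 of their control level or less in every library of a Ronin conditional knockout (CKO). The 33 described here are those that remain after zinc finger genes (symbols starting Zfp or Zscan), mitochondrial ribosomal protein genes (Mrp), Thap11 itself and 13 other named genes were left out, which removed 24 of the 57. Levels are CPM, the reads of a gene per 1000000 reads counted in that library. A gene was taken when its mean control CPM was at least 5 and its lowest control CPM was at least 2 times its highest CKO CPM. Of 23441 genes in the count table, 11462 reached the minimum level, and the 57 are 0.497% of those. The opposite pattern, at least 2 times the control level in every CKO library, was met by 22 genes. Because the members were chosen by their counts in these 6 libraries, their differences between genotypes are given as a description, without a test.

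Polyadenylated RNA was sequenced from dissected retinae, with 3 libraries per genotype. Controls were Ronin flox/flox mice without Cre. CKO mice were Chx10-Cre::GFP +/tg on the same Ronin flox/flox genotype, so both groups carried the floxed alleles and differed by the Cre-GFP transgene. The strain background of both was a mixture of C57/B6, FVB, 129/Sv and SJL/B6. The Chx10 promoter drives Cre in retinal progenitors, where this transgene is known to act in a mosaic manner, and an effect of the transgene itself cannot be told apart from loss of Ronin, since no library carried Cre without floxed alleles.

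Ronin, the product of Thap11, is a THAP-domain protein that binds DNA through a zinc finger at gene starts together with the co-regulator HCF-1. Its binding element is shared with the zinc finger factor ZNF143 and is built from the motif ACTACA followed, after a spacer, by TCCCA. Most known targets are widely expressed genes of metabolism, mitochondria and RNA handling.

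The libraries held between 23721052 and 28504391 counted reads. Thap11 was at 68.6, 75.5 and 71.5 CPM in control replicates 1 to 3 and at 11.3, 11.3 and 6.58 CPM in CKO replicates 1 to 3, so all CKO libraries were low and CKO replicate 3 was the lowest. Control replicate 2 stood apart, with correlations of log2 CPM to the other controls of 0.952 and 0.972, against 0.981 to 0.990 among CKO libraries. Summed markers of retinal progenitors (13 genes) spanned 9236 to 10216 CPM in controls and 9483 to 9921 CPM in CKO, those of ganglion cells (14 genes) 4765 to 5518 and 5308 to 5560 CPM, those of photoreceptor precursors (8 genes) 530 to 776 and 724 to 822 CPM, and those of amacrine and horizontal cells (9 genes) 274 to 389 and 292 to 332 CPM. Lens markers (19 genes) summed to 12.7 to 21.8 CPM in controls and to 10633, 84.3 and 760 CPM in CKO replicates 1 to 3. None of the 102 tested markers of the 10 cell type lists passed edgeR's test, and limma-voom also called 0. At an unadjusted edgeR p under 0.05, 12 were lower and 17 higher (28.4%, against 6.58% of all tested genes). DESeq2's Wald test called 2 lower, the vessel genes Flt1 and Vwf, and 16 higher, all of them lens genes. The part of lens RNA in the results was not tested. Vessel markers (13 genes) summed to 304 to 354 CPM in controls and to 265 to 290 CPM in CKO. Those of pigment epithelium spanned 41.4 to 84.8 and 37.6 to 43.1 CPM, and those of mesenchyme 74.8 to 171 and 55.5 to 78.4 CPM. Microglia markers spanned 51.6 to 63.6 and 52.4 to 67.4 CPM, and erythroid markers 7.31 to 16.6 and 4.28 to 14.0 CPM. The part of these cell types in the results was not tested.

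The promoters of these genes are shown first because they share a sequence that the choice of genes did not use. Promoter windows, from 250 bases before to 50 bases after each gene's start, came from a RefSeq table on mouse build GRCm38.p6, which is not the mm9 build of the counts. That table held 27 of the 33 genes. On either strand, 25 of the 27 (92.6%) held the motif ACTACA, against 11.5% of 11372 other tested genes outside the halving rule and 11.8% of all 27025 genes in the table. The composite element, ACTACA and then TCCCA after any 2 bases, was in 17 of 27 (63.0%, 95% Clopper-Pearson interval 42.4 to 80.6%), against 3.35% of other tested genes and 1.69% of all genes. The interval covers counting error only. In the following windows, read 5′ to 3′ along the strand named, capitals mark ACTACA and the 5 bases that follow the spacer. The first set are composite matches, listed by the size of the genes' drop, with Letm1 and Smarcal1 as examples that run against the direction of the gene.

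Zmat5 (chr11:4704646-4704673, + strand): ggaaggACTACAaaTCCCAgcgagcaga
Ccdc22 (chrX:7605401-7605428, - strand): cttagaACTACAttTCCCAatgttcctc
B230118H07Rik (chr2:101629022-101629049, - strand): caaagaACTACAttTCCCAggaatccgt
Rpia (chr6:70792245-70792272, - strand): cgtaggACTACAttTCCCAgcaacacgc
Cbr4 (chr8:61487658-61487685, + strand): gtaaggACTACAagTCCCAgaatgcaat
Pomgnt2 (chr9:121996081-121996108, - strand): ttgaaaACTACAatTCCCAggattctgt
Thtpa (chr14:55094748-55094775, + strand): ttggaaACTACAtcTCCCAtcatgcacc
Letm1 (chr5:33782855-33782882, + strand): ctcccgACTACAagTCCCAgcgtgcgcc
Smarcal1 (chr1:72583234-72583261, - strand): cgtcgaACTACAttTCCCAacagccagt

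The remaining 8 windows with ACTACA do not continue with TCCCA, and are shown because they depart from it by 1 base.

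Macrod1 (chr19:7056714-7056741, + strand): gacggaACTACAagTTCCAgggtgccca
Clpb (chr7:101663624-101663651, - strand): aaacaaACTACAttTCCCCgagggctgt
Iqgap3 (chr3:88081935-88081962, + strand): agaggaACTACAaaACCCAgggttccct
Pdia5 (chr16:35490925-35490952, - strand): tcgtgaACTACAacTCCCGgcaggctcc
Tmub1 (chr5:24447863-24447890, - strand): gggcgaACTACAatCCCCAcaatgctcc
Adck1 (chr12:88360475-88360502, + strand): aaaagaACTACAaaTCCCGgcaggcctc
Katnal1 (chr5:148928648-148928675, - strand): ccgagaACTACAaaGCCCAgcggtccgg
Tor2a (chr2:32757227-32757254, - strand): ctgtgaACTACAgcTCCCGgtgtgcacc

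In Clpb the window reads TCCCC after the spacer, in Pdia5, Adck1 and Tor2a TCCCG, in Macrod1 TTCCA, in Iqgap3 ACCCA, in Tmub1 CCCCA and in Katnal1 GCCCA. Counting positions from the first A of ACTACA over all 25 windows, position 9 was T in 22, position 10 was C in 24, and positions 11 and 12 were C in all 25. Position 13 was A in 21 windows and position 14, just past the composite, was G in 19. Further on, position 19 was C in 23 of the 25, while positions 15 and 21 had no base in more than 9 windows. Where a promoter had several copies of ACTACA, a composite copy was taken first and then the copy nearest the start, in these genes as in the comparison genes.

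The windows lay close to the gene start. The first A of the motif was between 144 bases before and 14 bases after it, with a median of 46 before. In 21 of 25 genes (84%) it was within 100 bases of the start, against 51.6% of the 3175 other genes of the table with ACTACA. The motif ran in the direction of the gene in 20 and against it in 5 (Clpb, Ifit2, Letm1, Smarcal1 and Tor2a). The opposite direction was thus found in 20% of these windows and in 49.2% of those of other genes. The 2 sets differ in motif type, since 68% of these windows and 13.9% of the others are composite. Position and direction among composite genes alone are given below. Abcc5 and Ppcdc had no ACTACA in this window. Cdc42bpg, Gdap1, Galm, Dnajc18 and Foxo4 were among the genes for which the table held no promoter.

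Some of these promoters hold more than 1 copy, as in the 3 with the largest drop among composite matches. Each is printed from 150 bases before to 30 bases after the start on GRCm38.p6, with the composite in capitals.

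Zmat5 (chr11:4704506-4704685, + strand): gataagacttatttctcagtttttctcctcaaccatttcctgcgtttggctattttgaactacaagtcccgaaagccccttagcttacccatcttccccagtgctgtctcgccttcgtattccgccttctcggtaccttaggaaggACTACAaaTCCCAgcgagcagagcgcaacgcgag
Ccdc22 (chrX:7605391-7605570, - strand): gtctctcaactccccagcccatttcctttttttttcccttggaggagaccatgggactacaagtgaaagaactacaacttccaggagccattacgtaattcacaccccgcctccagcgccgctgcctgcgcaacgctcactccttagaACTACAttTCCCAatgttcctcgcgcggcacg
B230118H07Rik (chr2:101629002-101629181, - strand): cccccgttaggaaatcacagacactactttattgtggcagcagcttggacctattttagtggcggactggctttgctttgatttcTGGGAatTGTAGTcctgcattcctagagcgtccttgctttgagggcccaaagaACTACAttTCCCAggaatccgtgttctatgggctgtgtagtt

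In Zmat5 and in Ccdc22 the composite lies across the gene start, its first base being 4 and 2 bases before it. ACTACA occurs 2 times in the Zmat5 promoter and 3 times in that of Ccdc22, counting both strands. In B230118H07Rik (Iftap in RefSeq) a second composite stands upstream in the opposite orientation, read in the printed strand as TGGGA, 2 bases and TGTAGT.

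Other promoter motifs were found in these genes at shares nearer to those of other genes, as the plot of motif shares shows. The pentamer TCCCA alone was in 24 of 27 (88.9%), against 64.5% of other tested genes, and overlaps the composite. The core of the ZNF143 site, TCCCA and TGC with 3 bases between, was in 5 (18.5%, against 4.26%). This share was above that of other genes, and the core, which contains TCCCA, is not independent of the composite. The CCAAT box bound by NF-Y was in 13 (48.1%, against 42.8%), the box TATAAA bound by TBP in 2 (7.41%, against 8.64%), the ETS motif CCGGAAGT in 1 (3.70%, against 8.35%) and the NRF1 motif CGCATGCG in 0 of 27, against 4.04%. In a shorter window, from 100 bases before to 50 after the start, the composite was in 15 of 27 (55.6%) and in 2.27% of other tested genes. Among the genes left out by name, 16 of the 22 with a promoter (72.7%) held the composite.

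**Figure D1:**
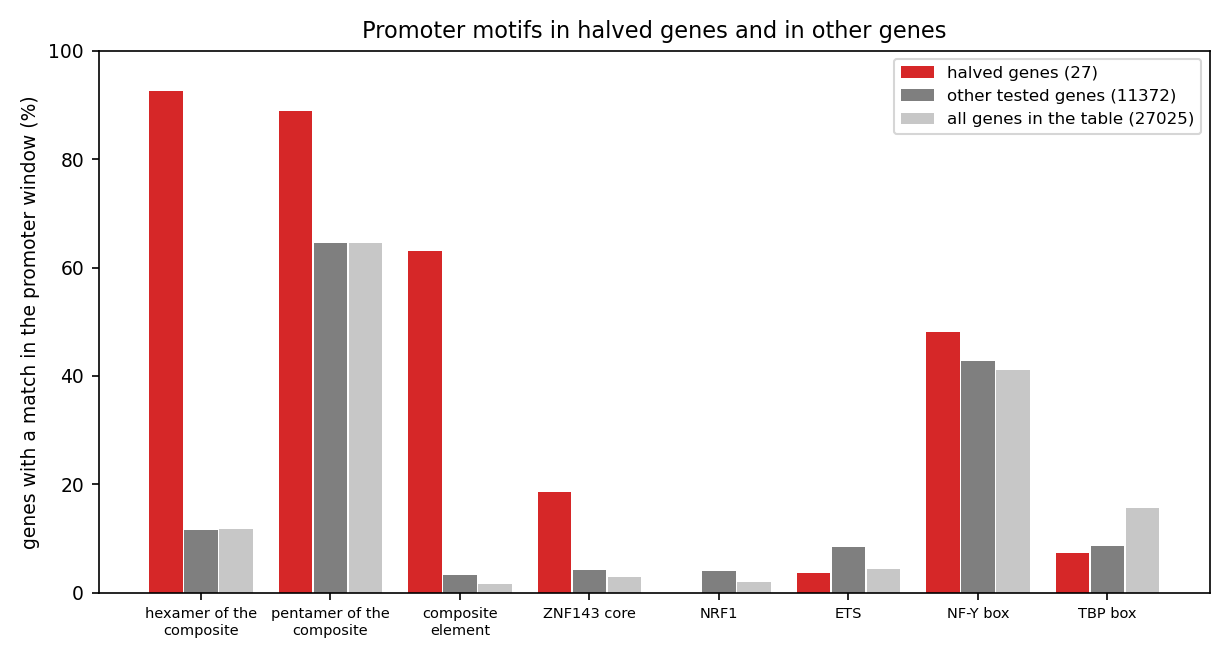
Share of genes (%, vertical axis) whose promoter window holds each of 8 motifs on either strand, for the 27 halved genes with a promoter (red), other tested genes (dark grey) and all genes of the table (light grey). The composite element is in 63.0% of the halved genes and 3.35% of other tested genes, while the NF-Y box is in 48.1% and 42.8%.

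The composite was far more widespread than the drop. Genes were compared with edgeR's quasi-likelihood test over 14609 genes, with Benjamini-Hochberg adjustment and a threshold of 0.05, which called 103 genes lower (0.705%) and 28 higher (0.192%) in CKO. All 33 halved genes are among the 103, from which nothing is read, since the rule used the same counts. Outside the halving rule, 381 tested genes held the composite, of which 27 (7.09%) were called lower and 6 (1.57%) higher. Here outside the rule means short of its thresholds, whatever the gene's name. The 27 therefore include Zfp72, Zfp74, Zfp93, Zfp108, Zfp383, Zfp455, Zfp738, Zscan22 and Nicn1, of the kinds left out by name. Over all 14552 tested genes outside the rule, 46 (0.316%) were called lower and 28 (0.192%) higher. Log2 fold changes of the 381 genes had a median of -0.18 and were below 0 in 250 (65.6%), against a median of -0.03 and 54.9% over all tested genes outside the rule. Of the 39 genes called lower outside the rule that have a promoter in the table, 27 (69.2%) held the composite, as did 6 of 21 (28.6%) called higher. Genes with ACTACA but no composite were called lower in 10 of 930 cases (1.08%).

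The count of 27 rests on the full set of libraries. It was 56 without control replicate 2 and 11 without control replicate 1, and it was 0 when control replicate 3 or any 1 of the CKO libraries was left out. It was 66 with DESeq2's Wald test, 21 with limma-voom and 15 when library sizes had no composition factor. All genes called lower, 103 in the main fit, changed with these settings too. They numbered 147 without control replicate 2, 73 without control replicate 1 and 27 without control replicate 3. Without CKO replicates 1 to 3 they numbered 33, 29 and 10. DESeq2's Wald test gave 209, limma-voom 93 and the fit with no composition factor 85. The median log2 fold change of the 381 genes stayed between -0.20 and -0.11 in all of these settings. The composite began within 100 bases of the start in 69.3% of the 381 and in 15 of the 17 halved genes that hold it (88.2%), and it ran with the gene in 60.9% and 82.4%. Among the 381, 7.20% of those with the composite within 100 bases of the start were called lower and 6.84% of the others.

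**Figure D2:**
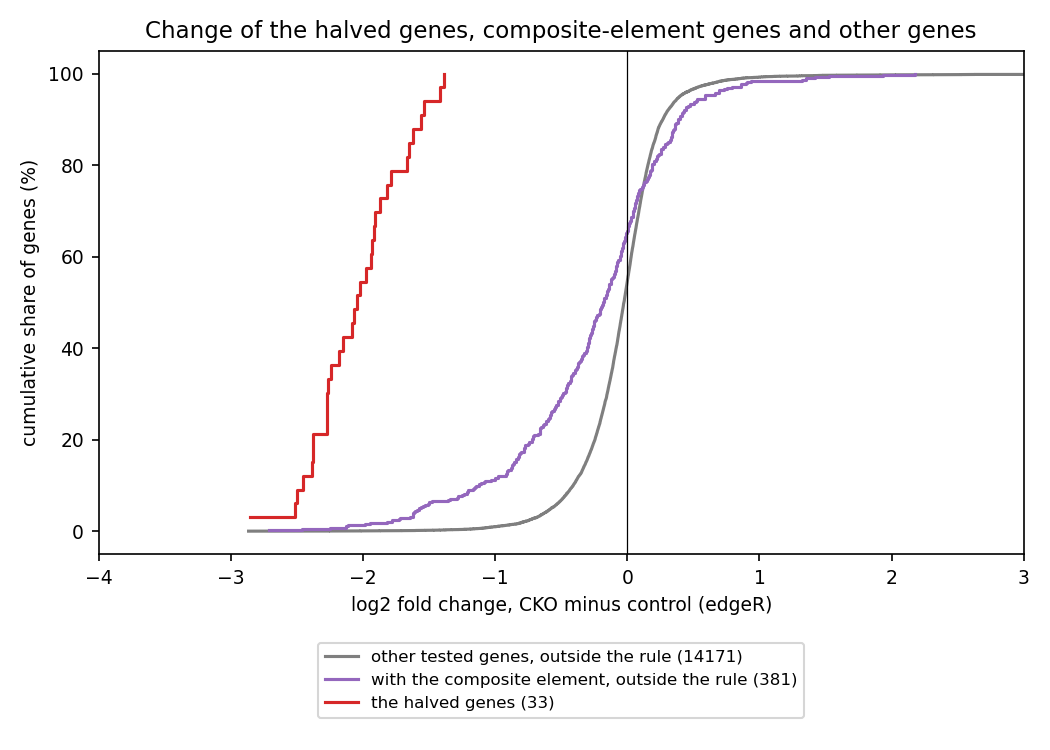
Cumulative share of genes (%, vertical axis) by log2 fold change, CKO minus control (horizontal axis, drawn from -4 to 3), for the 33 halved genes (red), 381 other tested genes with the composite element (purple) and the remaining tested genes outside the rule (grey). The red curve lies between -2.85 and -1.39 by the choice of genes, and the purple curve is left of the grey one below 0, with 65.6% of its genes below 0.

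Over the 33 genes the mean level in CKO was 14.7 to 40.2% of control, with a median of 25.4%. The ratio of mean control to mean CKO CPM ran from 2.49 to 6.78 (median 3.94) and was at least 4 in 15 genes and at least 3 in 26. Mean control levels ran from 6.37 to 116.5 CPM (median 29.9). The lowest count of any gene in a CKO library was 17 reads. In RNA from whole retinae, fewer cells that express a gene and less RNA per cell cannot be told apart. No source used here says whether strand was kept, and without it overlapping genes cannot be told apart.

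**Figure D3:**
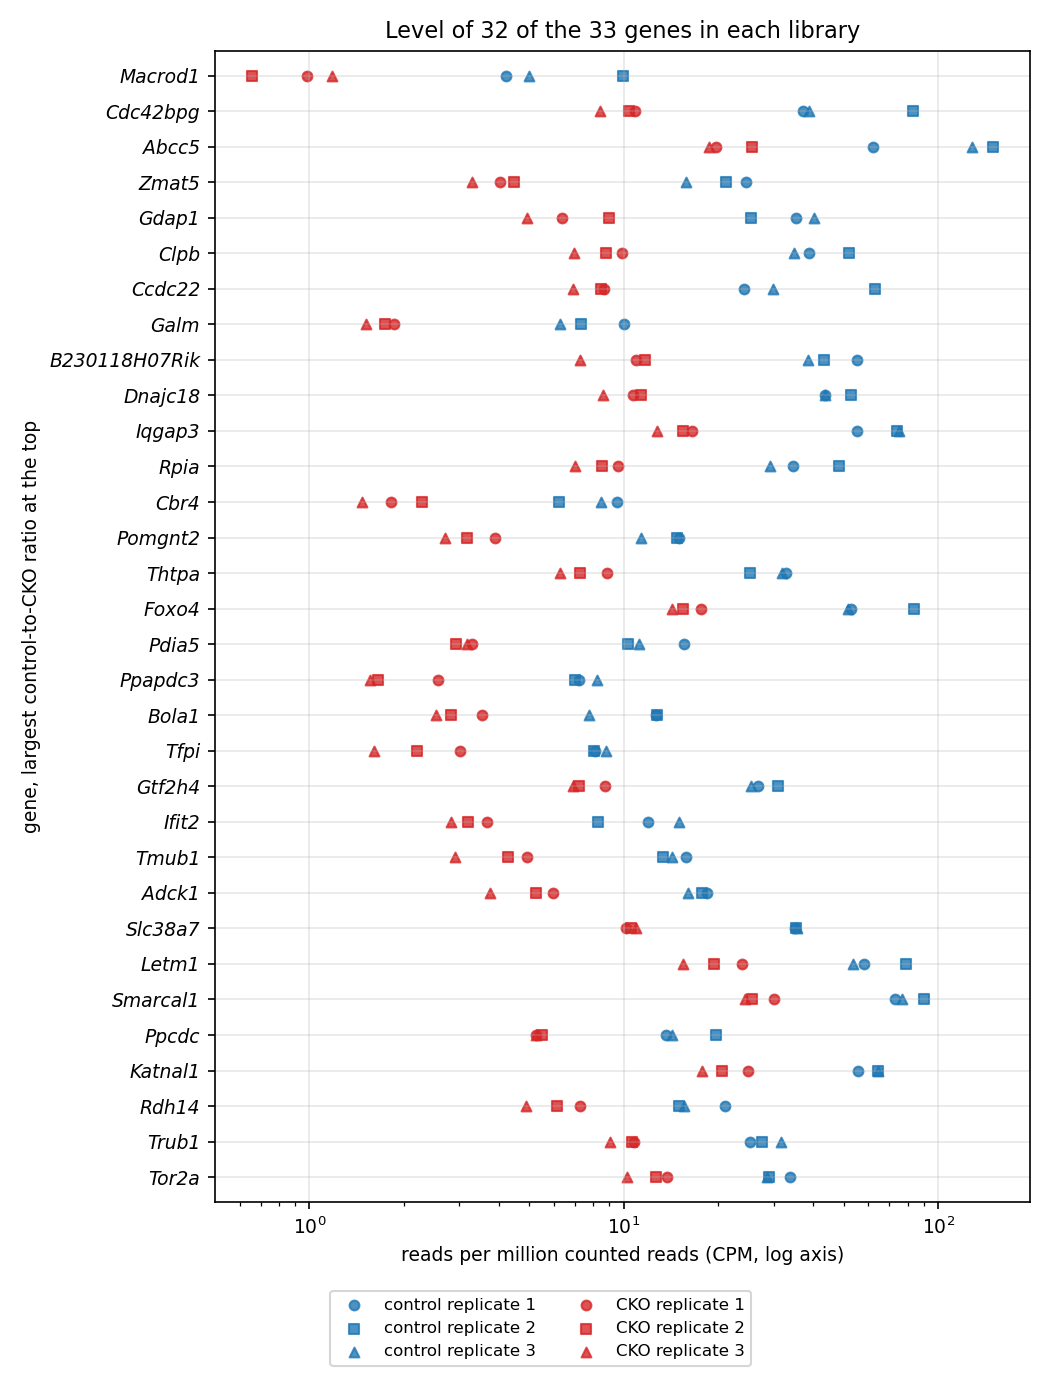
Level of 32 of the 33 genes (CPM, horizontal log axis) in the 3 control libraries (blue) and 3 CKO libraries (red), 1 gene per line and 1 symbol shape per replicate, with the largest ratio of means at the top. No gene's groups overlap, by the rule, and control replicate 2 lies above the other controls for Macrod1, Cdc42bpg and Ccdc22.

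Products of 7 of the genes work in mitochondria, and their ratios ran from 3.26 to 6.78 (median 4.35). Macrod1, which removes single ADP-ribose units from proteins, was at 4.22, 9.92 and 4.98 CPM in controls and 0.982, 0.656 and 1.18 CPM in CKO, the largest ratio of the 33 (6.78, log2 fold change -2.85 ± 0.44 SE). Its control replicate 2 was at about 2 times the level of the other controls. Gdap1, an outer membrane protein of mitochondrial fission that is mutated in Charcot-Marie-Tooth neuropathy, was at 35.4, 25.5 and 40.4 CPM in controls and 6.35, 8.99 and 4.93 CPM in CKO. Clpb, a disaggregase of the intermembrane space, was at 38.9, 51.9 and 34.7 CPM in controls and 9.86, 8.80 and 6.96 CPM in CKO. Both were separated by wide gaps, the lowest control of Clpb being 3.52 times its highest CKO level and that of Gdap1 2.83 times.

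Cbr4, a subunit of the reductase of mitochondrial fatty acid synthesis, had 9.54, 6.22 and 8.49 CPM in controls and 1.82, 2.277 and 1.48 CPM in CKO. Bola1, which takes part in iron-sulphur protein maintenance, had 12.7, 12.8 and 7.76 CPM in controls and 3.54, 2.82 and 2.53 CPM in CKO, with control replicate 3 apart from the others. Adck1, a kinase-like protein, fell from a mean of 17.4 ± 1.26 CPM (SD, n = 3) to 4.99 ± 1.13 CPM, and Letm1, an ion exchanger of the inner membrane, from 63.5 ± 13.5 to 19.5 ± 4.13 CPM. Letm1 had the highest control mean of these 7.

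The 5 enzymes of sugar and cofactor metabolism had ratios of 2.82 to 4.62 (median 4.01). Rpia, which makes ribose 5-phosphate in the pentose phosphate pathway, was at 34.4, 48.4 and 29.1 CPM in controls and 9.61, 8.53 and 6.998 CPM in CKO. Galm, which interconverts the anomers of galactose, was at 10.01, 7.31 and 6.28 CPM in controls and 1.86, 1.74 and 1.52 CPM in CKO. Thtpa, which hydrolyses thiamine triphosphate, was at 32.8, 25.2 and 31.8 CPM in controls and 8.84, 7.25 and 6.28 CPM in CKO. All 3 had their lowest level in CKO replicate 3. Ppcdc, an enzyme of coenzyme A synthesis, went from 15.8 ± 3.30 to 5.34 ± 0.123 CPM. Rdh14, a retinol dehydrogenase, was at 21.1, 15.0 and 15.5 CPM in controls and 7.26, 6.14 and 4.89 CPM in CKO, the narrowest gap of the 33.

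Of 9 genes for membrane transport, lysosome and secretory pathway, ratios ran from 2.49 to 5.30 (median 3.88). Abcc5, an exporter of organic anions and cyclic nucleotides, was at 62.3, 149 and 128 CPM in controls and 19.6, 25.7 and 18.7 CPM in CKO. Its controls differed more than 2-fold among themselves, and control replicate 1 was the low one. Slc38a7, a lysosomal glutamine transporter, had the most even controls, at 35.3 ± 0.308 CPM in controls and 10.6 ± 0.393 CPM in CKO. Dnajc18, a J-domain co-chaperone of the endoplasmic reticulum, was at 43.7, 52.8 and 43.8 CPM in controls and 10.7, 11.3 and 8.60 CPM in CKO, with the widest gap of all 33 genes (3.85 times). Pdia5, a protein disulphide isomerase, was at 15.6, 10.3 and 11.2 CPM in controls and 3.30, 2.93 and 3.16 CPM in CKO.

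Pomgnt2, a glycosyltransferase needed for the matrix-binding sugar chains of dystroglycan, was at 15.0, 14.8 and 11.4 CPM in controls and 3.89, 3.16 and 2.70 CPM in CKO. Ppapdc3, a lipid phosphatase related protein, was at 7.22, 6.99 and 8.22 CPM in controls and 2.56, 1.66 and 1.56 CPM in CKO. Tfpi, the inhibitor of the tissue factor pathway of clotting, was at 8.12, 8.03 and 8.75 CPM in controls and 3.02, 2.199 and 1.602 CPM in CKO. All 3 had control means below the median of the 33 genes. Tmub1, a ubiquitin-like membrane protein, went from 14.4 ± 1.27 to 4.03 ± 1.02 CPM. Tor2a, a torsin ATPase, was at 33.7, 29.0 and 28.6 CPM in controls and 13.8, 12.7 and 10.2 CPM in CKO, the smallest ratio of the 33 (2.49, log2 fold change -1.39 ± 0.17 SE).

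The 5 genes of cytoskeleton, cilium and endosome had the highest median ratio of the groups, 4.58. Cdc42bpg, a kinase that acts downstream of CDC42, was at 37.2, 82.9 and 38.8 CPM in controls and 10.9, 10.4 and 8.43 CPM in CKO. Ccdc22, a subunit of the COMMD complex that recycles receptors from endosomes, was at 24.1, 62.8 and 29.7 CPM in controls and 8.63, 8.45 and 6.91 CPM in CKO. In both, control replicate 2 was more than 2 times each other control, and CKO libraries were still below the lower controls. B230118H07Rik, whose RefSeq name marks it as a partner of intraflagellar transport, was at 55.1, 43.3 and 38.5 CPM in controls and 10.9, 11.7 and 7.25 CPM in CKO. Iqgap3, a scaffold of the actin cytoskeleton in dividing cells, was at 55.1, 74.0 and 75.3 CPM in controls and 16.5, 15.5 and 12.7 CPM in CKO. Katnal1, a microtubule-severing ATPase, went from 61.4 ± 4.97 to 21.0 ± 3.58 CPM.

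The last 7 act in the nucleus, on RNA or in the immune response, with ratios of up to 5.20 (median 3.63). Zmat5, a protein of the U11/U12 particle that recognises minor introns, was at 24.5, 21.1 and 15.8 CPM in controls and 4.03, 4.48 and 3.29 CPM in CKO. Foxo4, a forkhead factor downstream of insulin signalling, was at 53.0, 83.5 and 51.5 CPM in controls and 17.5, 15.4 and 14.2 CPM in CKO.

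Smarcal1, an annealing helicase of stalled replication forks, was at 73.0, 90.2 and 76.9 CPM in controls and 30.1, 25.7 and 24.3 CPM in CKO. Gtf2h4, a TFIIH subunit used in transcription and excision repair, went from 27.7 ± 2.93 to 7.62 ± 0.976 CPM, and Trub1, a pseudouridine synthase, from 28.1 ± 3.26 to 10.2 ± 0.988 CPM. Ifit2, an interferon-induced RNA-binding protein, went from 11.7 ± 3.38 to 3.24 ± 0.431 CPM. Per kilobase of exon in GENCODE M21, control levels were highest for Foxo4 (17.98 CPM per kilobase), Zmat5 (16.4) and Smarcal1 (14.0) and lowest for Cbr4 (1.29), Tfpi (1.52) and Ppcdc (2.72).

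At the threshold, the members nearest inside were Rdh14 and Tor2a, whose lowest control was 2.07 and 2.08 times the highest CKO level. The nearest genes outside were AI464131, Tbc1d8b and Stk10, at 1.94, 1.93 and 1.91 times. AI464131 was at 14.4, 15.3 and 13.7 CPM in controls and 7.05, 6.33 and 6.03 CPM in CKO, and Stk10, a kinase of the cytoskeleton, at 16.2, 23.7 and 18.8 and at 8.49, 8.37 and 7.17 CPM. Tbc1d8b, a RAB GTPase-activating protein, was at 13.4, 8.47 and 14.8 CPM in controls and 4.39, 4.399 and 3.41 CPM in CKO, and its promoter holds the composite. The values on both sides of the threshold run into each other.

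The rule sets the gap between genotypes but not the order of the CKO libraries. Of the 33 genes, 29 (87.9%) were lowest in CKO replicate 3, the library with the least Thap11. The same was true of 31.5% of 11405 genes at the same minimum outside the rule, and of 31.7% of the 5534 of these whose CKO mean was within the range of the halved genes. Relative to its mean over CKO libraries, the median halved gene was at 1.11, 1.02 and 0.844 in replicates 1 to 3. For Thap11 these values were 1.17, 1.16 and 0.676, and for the median of the 5534 genes 0.993, 1.01 and 1.002. The exceptions were 4 genes. Macrod1 (0.982, 0.656 and 1.18 CPM) and Slc38a7 (10.2, 10.6 and 10.96 CPM) were highest in CKO replicate 3, while Pdia5 was lowest in CKO replicate 2 and Ppcdc in CKO replicate 1. With TMM or DESeq2 scaling the count was 30 of 33, and among the genes left out by name it was 21 of 24. The 3 libraries also differed in lens RNA, in a different order. No test was run across the 3 CKO libraries.

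**Figure D4:**
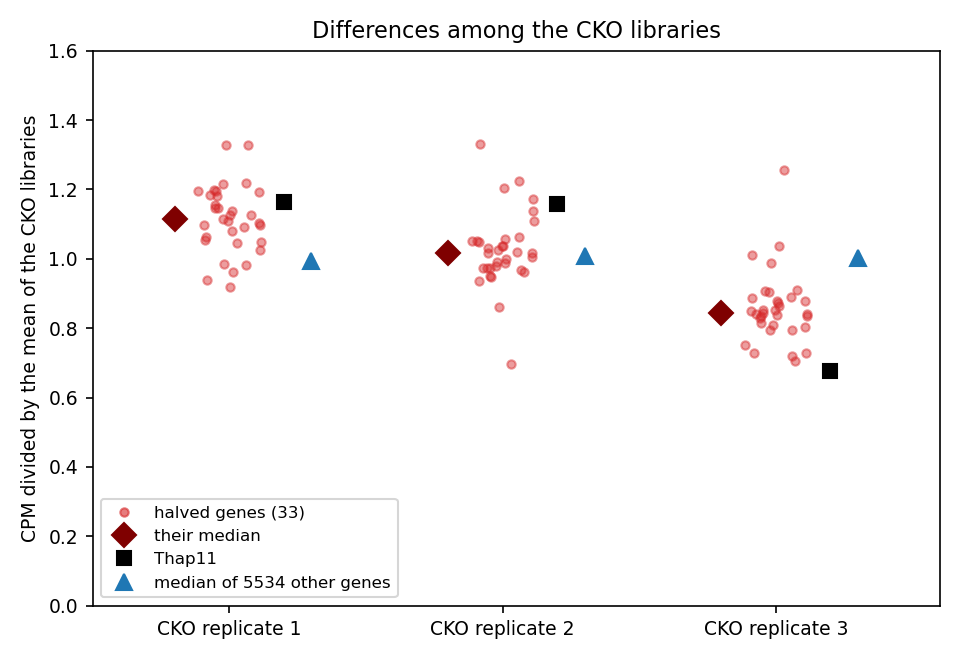
CPM in each CKO library divided by the mean of the 3 CKO libraries (vertical axis) for the 33 halved genes (small circles, spread sideways at random for legibility), their median (diamonds), Thap11 (squares) and the median of 5534 other genes of similar CKO level (triangles). In CKO replicate 3 the median of the halved genes is 0.844 and Thap11 is 0.676, while the other genes are at 1.002.

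This ordering came with a wide spread within CKO. The SD of log2 CPM among CKO libraries had a median of 0.23 over the 33 genes, against 0.10 over the 5534 genes of similar CKO level. Among controls the medians were 0.27 and 0.33, a difference not independent of the rule, which works against genes with 1 low control. The highest control was replicate 1 in 11 genes, replicate 2 in 14 and replicate 3 in 8 (33.3, 42.4 and 24.2%). Over the 11405 other genes at the same minimum these shares were 40.0, 32.9 and 27.2%. With TMM scaling the counts were 9, 19 and 5, beside 36.3, 40.4 and 23.3% of the other genes.

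The genes that share a family or a complex with each halved gene had log2 fold changes centred near 0. Lists of 33 families and partner sets, written from textbook knowledge, held 278 other tested genes. None was called lower and 1 was called higher by edgeR, while 18 (6.47%) had an unadjusted p below 0.05, against 6.58% of all tested genes. DESeq2's Wald test called 3 lower and 2 higher (Aldh1a3, Dpm3, Ero1lb, Pus7 and Rdh12) and limma-voom called none. The median log2 fold change of the 278 was -0.01, with 141 below 0, beside -0.03 over all tested genes.

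Foxo1, Foxo3 and Foxo6 had log2 fold changes between -0.37 and -0.06, and Iqgap1 and Iqgap2 between -0.21 and -0.15. In the COMMD complex of Ccdc22, 11 genes ranged from -0.31 to 0.19. The other 8 proteins of the U11/U12 particle of Zmat5 ranged from -0.52 to 0.52, the 10 genes listed with Gtf2h4, other TFIIH subunits and the repair nuclease gene Ercc5, from -0.17 to 0.17, and the 16 intraflagellar transport genes listed with B230118H07Rik from -0.38 to 0.37. The 16 dystroglycan glycosylation genes listed with Pomgnt2 had a median of 0.04 and included Dpm3, an activator of dolichol-phosphate mannose synthase, at 15.5, 8.51 and 9.51 CPM in controls and 5.47, 5.59 and 6.70 CPM in CKO (log2 fold change -0.98). None of these genes passed edgeR's test.

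The retinol and retinaldehyde dehydrogenases listed with Rdh14 had a median of -0.33 over 8 genes. Rdh12, a photoreceptor retinol dehydrogenase, was at 1.58, 0.683 and 1.18 CPM in controls and 0.246, 0.232 and 0.337 CPM in CKO, with a log2 fold change of -2.13 and an edgeR adjusted p of 0.0784. The interferon-induced gene Ifit3 was at 0.710, 0.562 and 0.647 CPM in controls and 0.210, 0.309 and 0.211 CPM in CKO (log2 fold change -1.45, edgeR adjusted p = 0.201). Ero1lb, an oxidase of disulphide formation listed with Pdia5, rose from 11.8 ± 1.62 to 23.4 ± 2.09 CPM (log2 fold change 0.91, edgeR adjusted p = 0.0478), a call lost with limma-voom, with no composition factor, with the replicate block, without the filter and without each library other than control replicate 2. Promoters of 9 of 213 family genes (4.23%) held the composite, near the 3.35% of other tested genes. Rdh12 and Ero1lb, whose log2 fold changes have opposite signs, are among the 9.

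**Figure D5:**
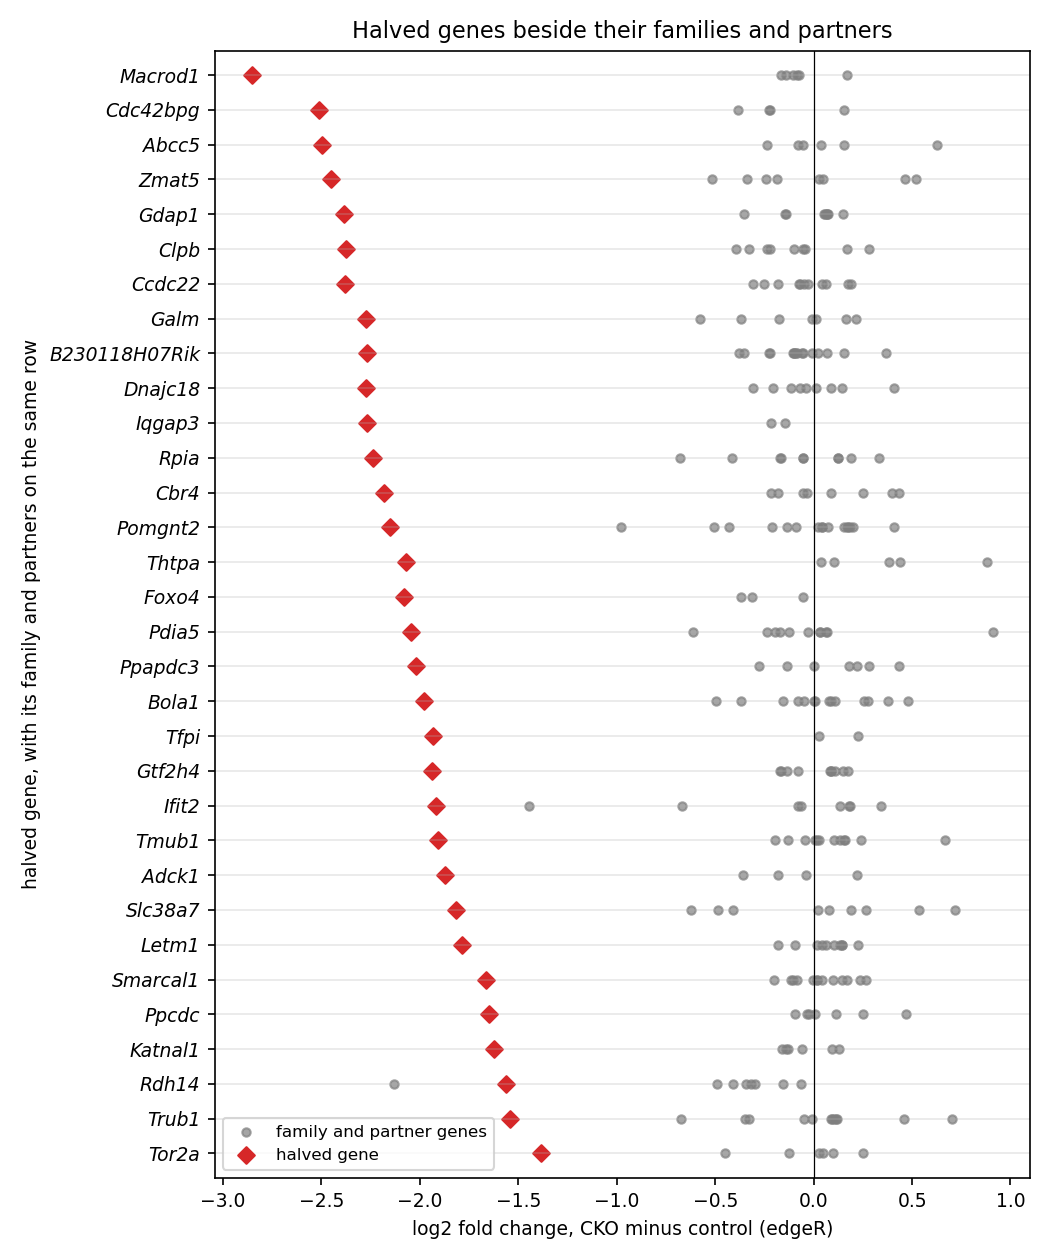
Log2 fold change, CKO minus control, from edgeR (horizontal axis) for 32 halved genes (red diamonds) and for the tested genes of its family or complex (grey points on the same line). The halved genes lie between -2.85 and -1.39 by choice, while the family genes have a median of -0.01, with Rdh12 at -2.13 and Ifit3 at -1.45 as the lowest.

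The 33 genes lie on 16 chromosomes, with at most 4 on any, and none is next to another. Of 66 neighbouring genes, 44 were tested, with a median log2 fold change of -0.07. edgeR called 1 of them lower and 0 higher, and 6 below and 1 above 0 had an unadjusted p under 0.05 (15.9%, against 6.58% of all tested genes). The called gene, also 1 of these 6, is Uqcr10, a complex III subunit gene that starts within 1000 bases of Zmat5 in the opposite direction. It met the halving rule and was left out of the 33 by name only, so its drop was set by the choice of genes. No neighbour outside the rule was called by edgeR. Uqcr10 was at 37.7, 25.7 and 19.0 CPM in controls and 7.16, 5.09 and 4.34 CPM in CKO (log2 fold change -2.38, edgeR adjusted p = 0.0157). Nothing is read from this call, since the rule used the same counts. Of the 3 divergent neighbours tested, 2, among them Uqcr10, had a log2 fold change below 0 and the median was -0.42. March4 beside Smarcal1 had a log2 fold change of 0.15, and Uqcr10 was the only divergent neighbour that passed edgeR's test. DESeq2's Wald test called Fam78a lower and Men1 higher as well, and limma-voom called Uqcr10 alone.

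For 10 of the genes the gene model overlaps a neighbour's. Most of these neighbours had few reads, and the 3 with the most were Flrt1, which overlaps Macrod1 (23.1 CPM in controls, 17.2 in CKO), Ap1g2, which overlaps Thtpa (9.60 and 8.78), and March4, which overlaps Smarcal1 (8.45 and 9.81). Flrt1 had more reads than Macrod1 itself, and without strand the reads of such a pair cannot be told apart where they overlap.

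Broader pathways were measured through 16 lists of genes in ADP-ribose metabolism, DNA repair, splicing, cilia, autophagy and RNA and mitochondrial functions. They held 324 tested genes that are not members. edgeR called 2 of these lower and 0 higher, beside 0.705% lower and 0.192% higher of all tested genes. At an unadjusted edgeR p under 0.05, 7 were below and 10 above 0 (5.25%, against 6.58% of all tested genes). DESeq2's Wald test called 4 lower and 4 higher, and limma-voom 2 lower. List medians lay between -0.14 and 0.07. DNA end joining and SET domain methyltransferases shared the same call, Setmar, a SET domain protein, at 4.81, 2.41 and 3.35 CPM in controls and 0.667, 0.656 and 0.337 CPM in CKO (log2 fold change -2.71 ± 0.37 SE, edgeR adjusted p = 0.0200). Its mean control level is below the minimum of 5 CPM, and its promoter holds the composite. The autophagy list had Atg4c, a protease that processes LC3, at 21.5, 16.2 and 23.4 CPM in controls and 11.1, 9.80 and 8.52 CPM in CKO (log2 fold change -1.12, edgeR adjusted p = 0.0411). In the lists that hold a halved gene, the most abundant genes were H2afy, a histone variant with a macrodomain like that of Macrod1, at 457 ± 52.8 and 475 ± 21.3 CPM, and Sf3b2, a U2 particle subunit, at 837 ± 448 and 625 ± 14.1 CPM.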

How the data were processed

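Polyadenylated RNA of 3 control and 3 CKO retina samples was sequenced, with groups and replicate numbers from the sample titles. The labels do not say that replicates are separate animals, so p-values measure the spread between libraries. The authors deposited 1 table of raw read counts per gene symbol. The submitters' processing notes name build mm9, HTSeq 0.5.4p3, DESeq 2.13 and BWA 0.7.6a-r433, without roles or annotation. From the table, 3 merge-conflict lines, 1 blank line and 1 repeated row were skipped. The members and gene lists were chosen with earlier results of these data known.

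CPM used column sums. Genotypes were compared in R 4.3.3 with edgeR 4.0.16 (glmQLFit and glmQLFTest, TMM scaling, genotype only) after filterByExpr with a minimum count of 10, which removed 8832 genes. Benjamini-Hochberg adjustment ran over all tested genes, with a threshold of 0.05. Each SE of a log2 fold change is its absolute value divided by the square root of edgeR's F statistic. It is thus derived from the test and is not a separate estimate. The script was tested on simulated data. Alternatives used DESeq2 1.42.0, limma 3.58.1 (voom), other scalings and filters, other folds of the rule, a replicate block and leaving out each library.

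The values of 1 of the 33 members, counted throughout, are not reported here. Values in every library are given for the 20 members with the largest ratio, the 3 with the highest control mean, the 3 nearest to the threshold on each side, the called neighbours and called pathway genes. For pathway lists without a call, the most abundant gene is named only where the list holds a member. Family lists were written after the members were known, and genes named from them and from DESeq2's calls were chosen after their values were seen. Promoters were matched by symbol or RefSeq gene, which gave 11421 tested genes a promoter, and 8 motifs were searched on both strands. Neighbours came from RefSeq gene order on GRCm38.p6.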

Additional observations from a re-analysis of the deposited data

How the results depend on the processing

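A fold of at least 1.5 in the rule gave 75 members and one of at least 3 gave 11. Leaving out each library gave 34 to 46 members, which kept all 33 except without control replicate 2, where 32 were kept. Leaving out a library cannot narrow the gap that the rule measures. A member could thus be lost only through the minimum mean control CPM, and nothing is read from how many were kept. The median log2 fold change of the 33 stayed between -2.18 and -1.94. With the replicate block, 113 genes were called lower, 40 higher, and all 33 members and 1 neighbour. Deviations of same-numbered libraries from their group means had correlations of 0.336, 0.107 and -0.00775, and only replicate 1 correlated best with its own number. With 3 libraries per group, these values cannot tell whether the replicate numbers pair the samples. DESeq2's Wald test called 209 lower and 117 higher, with 3 neighbours. limma-voom lost Ccdc22 and Macrod1. The rule chose the members from the same counts, so nothing is read from how many of them were called.

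Leaving out each library gave 10 to 147 genes lower, 6 to 72 higher, 5 to 33 members called lower, 0 to 2 neighbours called and 0 to 56 genes with the composite outside the rule called lower. Members called lower numbered 14 when control replicate 3 was left out, 17 when CKO replicate 1 was, 14 when CKO replicate 2 was and 5 when CKO replicate 3 was. Uqcr10 was not called without CKO replicate 2 or CKO replicate 3. Such fits leave 1 group with fewer samples, and the cause was not tested further. Member calls are listed here only to describe the fits, since the members were picked by the same counts. For composite genes, added after the data were seen, the count was 15 with no composition factor and 66 with DESeq2's Wald test. All genes called lower in these 2 settings numbered 85 and 209. Low counts limit Macrod1 and other genes near 1 CPM in CKO.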
